A study of Homo sapiens with 26 samples.

Results

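The 9 genes described here encode apolipoproteins, the protein components of the particles that carry fat and cholesterol in blood: APOA1, APOA2, APOA4, APOA5, APOB, APOC3, APOE, APOH and APOM. They were chosen by name as known liver targets of the transcription factors FOXA1 and HNF4A. A binding peak was assigned to a gene when it shared at least 1 bp with the gene body or with 50 kb on either side of it. By this rule the 9 of 20136 protein-coding genes held 30 of 155652 FOXA1 peaks and 35 of 38291 HNF4A peaks. They also held 5 of 28831 FOXA1dbd peaks, 13 of 105591 FOXA1nhaa peaks and 12 of 71202 FOXA1rraa peaks. FOXA1dbd, FOXA1nhaa and FOXA1rraa are the labels' names for 3 FOXA1 variants. All 5 proteins carried a HALO tag, were made ectopically for 48 hours in BJ fibroblasts, a cell line from human foreskin, and were mapped by ChIP-seq through the tag (HALO antibody). Each construct has 2 ChIP libraries and 2 inputs in the labels, and 1 peak list per construct was analysed. Of the 26 samples in the labels, those of HALO-tagged H2B were not analysed here.

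In the body these genes are transcribed mainly in liver and intestine, and fibroblasts are not a known source of most of them. FOXA1 is a forkhead factor that can bind sites within closed chromatin, and HNF4A is a nuclear receptor that drives much of the liver's lipid programme. FOXA and HNF4A proteins are known to bind together at many liver enhancers, among them those of the apolipoprotein genes. The lists hold binding positions and no expression, so neither the fibroblast label nor transcription of the 9 genes could be checked. With 1 list per construct there is no replicate error, and no difference below has a test. Wilson 95% intervals are given for shares of peaks and reflect the number of peaks alone. The score of a peak is the authors' own value, and it was used only to rank peaks inside their list.

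The FOXA1rraa list is of mixed origin at these genes. Of its 12 peaks, 6 are rows of the FOXA1 list with the same coordinates and peak name, 5 are rows of the FOXA1nhaa list, and 1 carries a name of its own. Counts, overlaps, scores, distances, base composition and forkhead cores of FOXA1rraa are therefore given with and without the FOXA1 rows, and peak-free stretches with all rows. Of the 6 peaks left without the FOXA1 rows, 5 are still FOXA1nhaa rows, so those values do not describe FOXA1rraa alone. The 5 FOXA1dbd peaks carry names of 2 kinds, 3 of one and 2 of the other. The 35 HNF4A peaks and the 30 FOXA1 peaks each carry names of 1 kind.

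The sequences of the peaks on which the results turn are shown first, read 5′ to 3′ on the plus strand of GRCh37 (hg19) at the coordinates given. Capitals mark a forkhead core (TGTTTAC or TATTTAC, or the reverse complement) or an HNF4 core (CAAAGTCCA, or the reverse complement) unless stated otherwise. The opening pair is the highest-scoring FOXA1 peak at any of the 9 genes, 300 bases around its centre in an intron of BUD13, and the highest-scoring HNF4A peak, 300 bases around its summit just upstream of APOA1.
FOXA1 peak in BUD13, chr11:116638989-116639288: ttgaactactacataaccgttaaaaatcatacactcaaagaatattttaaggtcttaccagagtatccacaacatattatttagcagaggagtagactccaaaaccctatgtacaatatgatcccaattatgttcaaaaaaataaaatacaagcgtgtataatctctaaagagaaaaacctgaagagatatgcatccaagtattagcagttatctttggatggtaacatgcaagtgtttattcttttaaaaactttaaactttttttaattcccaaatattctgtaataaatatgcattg
HNF4A peak upstream of APOA1, chr11:116709441-116709740: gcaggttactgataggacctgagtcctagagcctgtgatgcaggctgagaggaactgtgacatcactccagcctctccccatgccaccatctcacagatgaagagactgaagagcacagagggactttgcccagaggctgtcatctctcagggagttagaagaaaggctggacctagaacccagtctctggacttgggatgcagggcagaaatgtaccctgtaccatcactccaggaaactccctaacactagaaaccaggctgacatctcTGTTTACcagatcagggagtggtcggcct
The FOXA1 sequence holds neither core and has a GC content of 29.0%, against 53.0% in the HNF4A sequence. The single exact core in the HNF4A sequence is a forkhead core whose middle lies 124 bp from the summit, outside the central 200 bp searched in every peak. Near matches were not marked or counted. The HNF4A sequence holds gggactttg, for example, which differs from the reverse complement of the HNF4 core only in its first base. The next sequence is the site present in all 5 lists, in an intron of SIK3 upstream of APOA1, with capitals for the 71 bases that every list covers.
Site in all 5 lists, chr11:116723167-116723466: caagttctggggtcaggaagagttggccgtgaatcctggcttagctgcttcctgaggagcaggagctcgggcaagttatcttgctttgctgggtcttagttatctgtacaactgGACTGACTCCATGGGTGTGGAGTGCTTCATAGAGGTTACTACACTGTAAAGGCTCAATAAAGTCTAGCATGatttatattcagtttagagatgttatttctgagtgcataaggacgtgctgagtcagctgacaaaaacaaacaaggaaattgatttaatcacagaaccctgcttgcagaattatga
Its 530 bp union of the 5 rows holds no forkhead core and no HNF4 core. The FOXA1 peaks that hold a forkhead core in their central 200 bp are 3 of 30, and those beyond the 3′ end of APOB and in an intron of APOH are shown.
FOXA1 peak beyond the 3′ end of APOB, chr2:21195408-21195566: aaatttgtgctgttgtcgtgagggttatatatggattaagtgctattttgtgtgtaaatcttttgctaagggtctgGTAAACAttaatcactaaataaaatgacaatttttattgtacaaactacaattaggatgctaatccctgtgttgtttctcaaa
FOXA1 peak in APOH, chr17:64247632-64247757: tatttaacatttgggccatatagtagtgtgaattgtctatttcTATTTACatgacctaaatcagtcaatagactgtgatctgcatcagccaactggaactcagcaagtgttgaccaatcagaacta
The HNF4A peaks shown last are the weak peak in an intron of APOB, which holds a forkhead core, and a stretch of the APOM peak. That stretch ends just before the start of the canonical APOM transcript, inside the gene's longest extent, and holds neither core.
HNF4A peak in APOB, chr2:21265850-21266143: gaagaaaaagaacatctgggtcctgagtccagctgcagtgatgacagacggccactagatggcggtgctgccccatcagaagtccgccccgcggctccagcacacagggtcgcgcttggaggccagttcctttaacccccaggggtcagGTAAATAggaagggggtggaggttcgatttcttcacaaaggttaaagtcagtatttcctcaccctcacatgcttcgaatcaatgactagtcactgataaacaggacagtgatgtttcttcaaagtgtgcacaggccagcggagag
HNF4A peak at APOM, chr6:31623457-31623670: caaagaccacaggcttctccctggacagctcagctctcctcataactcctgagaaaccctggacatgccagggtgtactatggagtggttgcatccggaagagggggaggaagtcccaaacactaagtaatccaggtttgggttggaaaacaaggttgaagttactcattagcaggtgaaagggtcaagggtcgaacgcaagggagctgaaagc

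FOXA1 peaks were found in the windows of all 9 genes, but most of these windows held few of them and most peaks lay far from the genes. The FOXA1 count was 13 for APOH, 7 for APOA5, 5 for APOA1, 3 for APOC3, 2 each for APOA4 and APOB, and 1 each for APOA2, APOE and APOM. The HNF4A count was 13 for APOM, 7 for APOA4, 6 each for APOC3 and APOE, 5 for APOA1, 4 each for APOA2 and APOA5, 3 for APOH and 2 for APOB. The order of the genes thus differed between the factors, with APOH at the top for FOXA1 and APOM at the top for HNF4A. Counts of APOA1, APOA4, APOA5 and APOC3 share peaks, because these 4 genes lie within 1 cluster on chromosome 11 and their windows overlap.

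**Figure D1:**
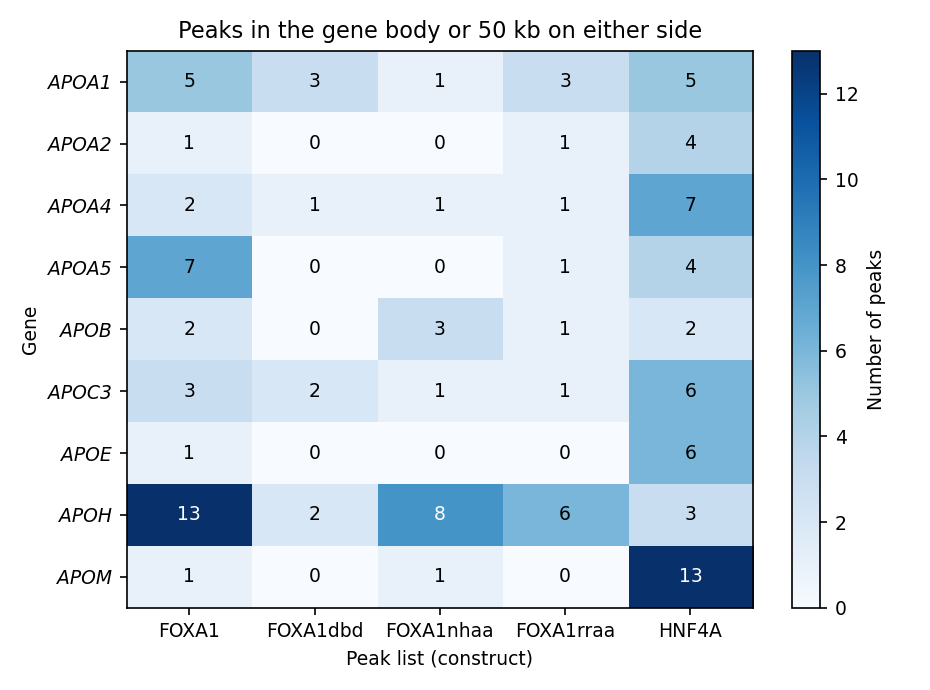
Number of peaks in the gene body or 50 kb on either side for each of the 9 genes (rows) and each peak list (columns), with darker cells for more peaks. The darkest cells are the 13 FOXA1 peaks of APOH and the 13 HNF4A peaks of APOM, and no FOXA1dbd, FOXA1nhaa or FOXA1rraa peak fell in the APOE window.

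A peak within 50 kb is common for any gene. FOXA1 had a peak in the windows of 9 of the 9 genes and of 87.1% of all protein-coding genes, and HNF4A in those of 9 of 9 and of 83.6%. For FOXA1dbd the share was 4 of 9 against 59.7%, for FOXA1nhaa 6 of 9 against 81.8%, and for FOXA1rraa 7 of 9 against 75.0%. Without the shared FOXA1 rows, FOXA1rraa had a peak at 5 of 9 against 66.5%. These counts are close to or below the background, so the presence of a peak in the window says little about the 9 genes.

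Counts within 10 kb of the genes separated the factors further, while counts inside the gene body did not. Within the gene body or 10 kb on either side, HNF4A had a peak at 8 of the 9 genes, against 69.7% of all genes, and the gene without one was APOH. The same single peak was counted for APOA1 and APOC3. FOXA1 had a peak within 10 kb of 2 of the 9, APOB and APOH, against 68.0% of all genes. FOXA1dbd had none at any of the 9, against 39.4%. FOXA1nhaa had a peak within 10 kb of 2 of the 9, APOB and APOH, against 61.5%, and FOXA1rraa of 1, APOB, against 54.4% (47.0% without the shared rows, which do not alter the count). Inside the gene body, the count was 2 of 9 for FOXA1 and 2 of 9 for HNF4A, against 54.4% and 56.8% of all genes. It was 0 of 9 for FOXA1dbd against 31.4%, 2 of 9 for FOXA1nhaa against 49.7% and 1 of 9 for FOXA1rraa against 44.2% (38.5% without the shared rows, again with 1 of 9). Gene length enters these shares: the median length was 3.37 kb for the 9 genes and 27.2 kb for all protein-coding genes.

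Per length of window, the median of the 9 genes was below that of all genes for FOXA1 and above it for HNF4A. The median density of FOXA1 peaks was 1.95 per 100 kb over the 9 genes and 4.01 per 100 kb over all genes. For HNF4A it was 4.91 per 100 kb over the 9 and 2.3 per 100 kb over all genes. The 3 variants had medians of 0.0 for FOXA1dbd, 0.967 for FOXA1nhaa and 0.97 for FOXA1rraa per 100 kb, against 0.744, 2.63 and 1.71 over all genes. Without the shared rows the FOXA1rraa median over the 9 was 0.701. APOM stood highest, with an HNF4A density of 12.3 per 100 kb that was above that of 98.1% of all genes. HNF4A density at APOA4 was above 87.6% of genes, at APOC3 above 83.0%, at APOE above 82.9%, at APOA1 above 77.6%, at APOA2 above 70.0% and at APOA5 above 69.4%. APOH and APOB were above 47.6% and 35.3% of genes. The 4 cluster genes share peaks, so the 9 values are not independent. With each peak counted once over the joined windows, the rate was 4.02 per 100 kb for FOXA1 and 4.69 for HNF4A. It was 0.67 for FOXA1dbd, 1.74 for FOXA1nhaa and 1.61 for FOXA1rraa with all rows. By this pooled rate FOXA1 was not below the median of all genes, and the APOH window supplied 13 of its 30 peaks. For FOXA1 the densest window was that of APOH, with 9.0 per 100 kb, above 75.7% of genes.

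**Figure D2:**
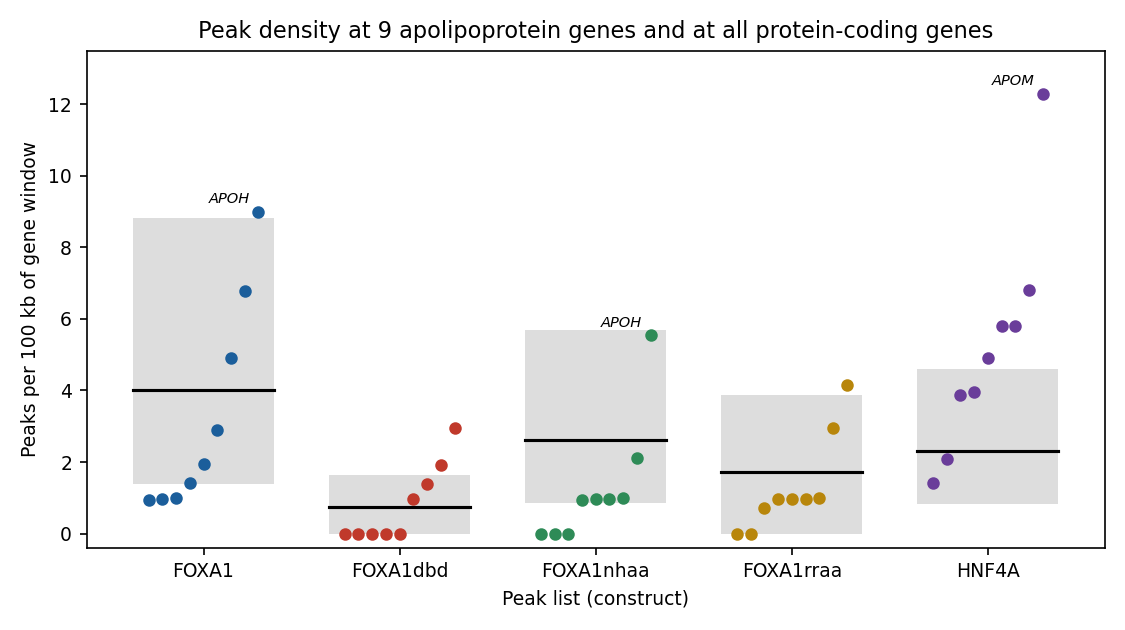
Peaks per 100 kb of gene window for the 9 apolipoprotein genes (points, ordered from lowest to highest within each list) and for all protein-coding genes (grey box from the lower to the upper quartile, black line at the median). In the HNF4A list 7 of the 9 points lie above the median line of 2.3, and APOM is at 12.3; in the FOXA1 list 3 of the 9 lie above the median line of 4.01, with APOH at 9.0.

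HNF4A peaks lay closer to the transcription starts of these genes than FOXA1 peaks did. The median distance from a peak centre to the nearest annotated start of a member was 36.9 kb for the 30 FOXA1 peaks and 14.8 kb for the 35 HNF4A peaks. The closest FOXA1 peak centre was 2341 bp away (APOH) and the closest HNF4A centre 63 bp away (APOM). Within 2500 bp of a start there were 6 HNF4A centres and 1 FOXA1 centre, and within 10 kb there were 13 and 3. The whole lists differed in the same direction, with 33.6% of HNF4A and 6.15% of FOXA1 centres within 1000 bp of a protein-coding start. The APOM window supplied 13 of the 35 HNF4A peaks, and the APOH window 13 of the 30 FOXA1 peaks. The variants had medians of 42.5 kb (FOXA1dbd), 36.2 kb (FOXA1nhaa) and 43.9 kb (FOXA1rraa), with closest centres at 15090, 5061 and 5061 bp. The 6 FOXA1rraa peaks that are not FOXA1 rows had a median of 42.6 kb. No list but HNF4A had a centre within 1000 bp of a start of any of the 9 genes. HNF4A had such a centre at 2 of the 9, APOB and APOM, against 47.4% of all genes. The background was 24.5% for FOXA1, 7.42% for FOXA1dbd, 19.2% for FOXA1nhaa and 14.3% for FOXA1rraa, all against 0 of 9.

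**Figure D3:**
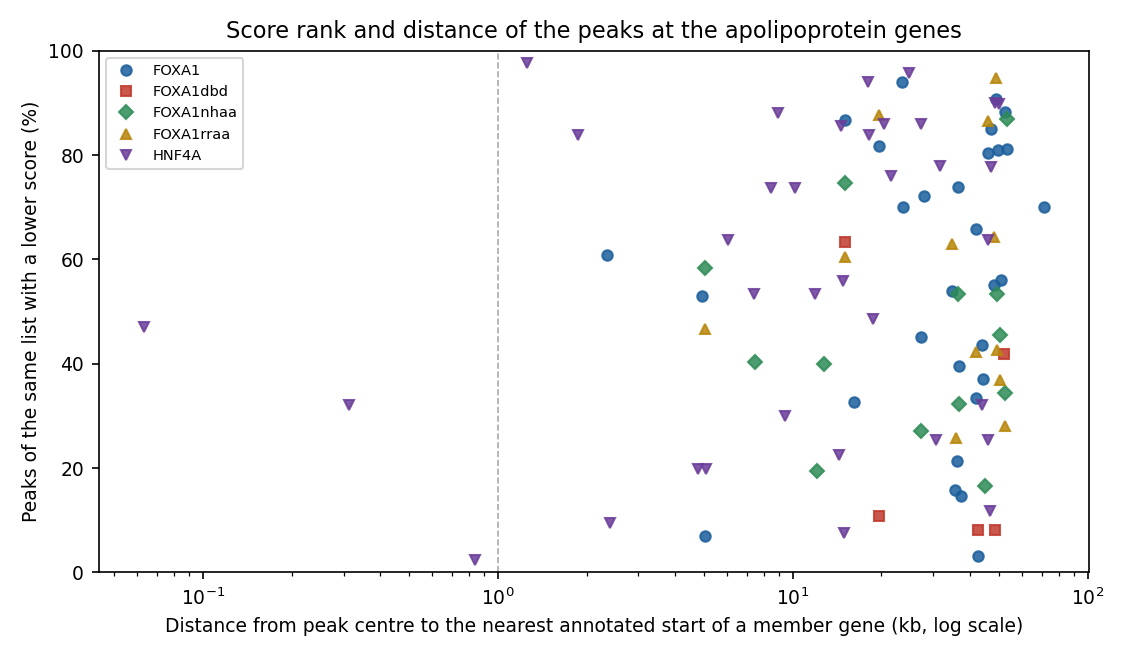
Each point is a peak at the 9 genes: its distance to the nearest annotated start of a member gene (kb, log scale) against the percentage of peaks of its own list with a lower score. The dashed line marks 1000 bp, left of which only HNF4A peaks lie, 3 in number, while 3 FOXA1 peaks lie within 10 kb of a start, the nearest at 2341 bp.

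Many of the HNF4A peaks lay at the starts of neighbouring genes instead. Centres of 20 of 35 HNF4A peaks (57.1%, interval 40.9 to 72.0%) lay within 1000 bp of the start of some protein-coding gene, against 33.6% of the whole HNF4A list. The nearest start was that of a member for 2 of the 20 and that of a neighbour for 18. The APOM window, with 15 protein-coding genes, held 13 of the 35 HNF4A peaks, and many of the 20 lay in it. The share without that window was not computed. For FOXA1 the count was 1 of 30 (3.33%, interval 0.591 to 16.7%), at ABHD16A in the APOM window, against 6.15% of the list. It was 1 of 13 for FOXA1nhaa against 5.87%, 0 of 5 for FOXA1dbd against 6.19% and 0 of 12 for FOXA1rraa against 6.07%. The FOXA1 peaks lay in introns (19 of 30) or between genes (9 of 30), and 27 of the 30 lay outside the bodies of the 9 genes.

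The chromosome 11 cluster holds the genes of 4 proteins of plasma lipoproteins within 1 stretch. APOA1 is the main protein of high-density lipoprotein, APOA4 an intestinal and hepatic apolipoprotein, APOC3 an inhibitor of triglyceride clearance and APOA5 a promoter of it. APOA1 lies at chr11:116706467-116708338 on the minus strand, APOC3 at chr11:116700422-116703788 on the plus strand, APOA4 at chr11:116691416-116694020 and APOA5 at chr11:116660083-116663136, the last pair on the minus strand. Over the joined window, chr11:116610083-116758338, there were 12 FOXA1, 3 FOXA1dbd, 1 FOXA1nhaa, 4 FOXA1rraa and 7 HNF4A peaks. The FOXA1 peaks stood at the flanks: 7 on the BUD13 side beyond APOA5 and 5 in SIK3 beyond APOA1.

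No FOXA1 peak lay between chr11:116639417 and chr11:116723278, a stretch of 83.9 kb that covers all 4 genes. Such stretches are common: the starts of 35.9% of protein-coding genes lay in a FOXA1-free stretch at least as long, while the median stretch between neighbouring FOXA1 peaks was 5.43 kb. The stretch without FOXA1dbd peaks around these genes was 1520.0 kb, and 6.53% of gene starts lay in one as long. The stretch without FOXA1nhaa peaks was 557.0 kb, with 8.14% of gene starts in one as long, and that without FOXA1rraa peaks was 102.0 kb, with 52.9%. Of the 7 HNF4A peaks of the cluster, 4 stood inside the FOXA1-free stretch. The HNF4A-free stretch around the starts of APOA1, APOA4 and APOC3 was 27.2 kb, and that around the APOA5 start was 28.2 kb. These stretches were measured after the positions had been seen.

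The strongest HNF4A peak at any of the 9 genes lay 1253 bp upstream of the APOA1 start, at chr11:116709438-116709816. Its score was 589 and its fold enrichment 18.0, above 97.7% of the HNF4A list, and lay within the noncoding gene APOA1-AS. No peak of another list overlapped it. The peak nearest to APOA5, at chr11:116653511-116653873 in a coding exon of ZPR1, had score 276 and fold enrichment 8.8, and lay 8898 bp from an APOA5 start. The peak nearest to APOA4, at chr11:116682040-116682243, was weaker, with a score of 108, and lay 11867 bp downstream of the APOA4 start, beyond the 3′ end of the gene. The highest FOXA1 peak at any of the 9 genes was in this cluster, at chr11:116638862-116639416 in BUD13, with a score of 340, above 94.1% of the FOXA1 list. It lay 23448 bp from the nearest APOA5 start, and no peak of another list overlapped it.

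The only site in all 5 lists was also here, 15.1 kb upstream of APOA1 in an intron of SIK3. The FOXA1 row spanned chr11:116723279-116723603 with a score of 259, and the FOXA1dbd row chr11:116723281-116723584 with score 73 and fold enrichment 5.5. FOXA1nhaa and FOXA1rraa shared 1 row, chr11:116723200-116723542, with score 128 and fold enrichment 7.4. The HNF4A row spanned chr11:116723074-116723351, with score 111 and fold enrichment 5.9. FOXA1 and HNF4A shared 73 bp at the edges of their rows, and this was the only FOXA1 peak of the 30 that an HNF4A peak overlapped.

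**Figure D4:**
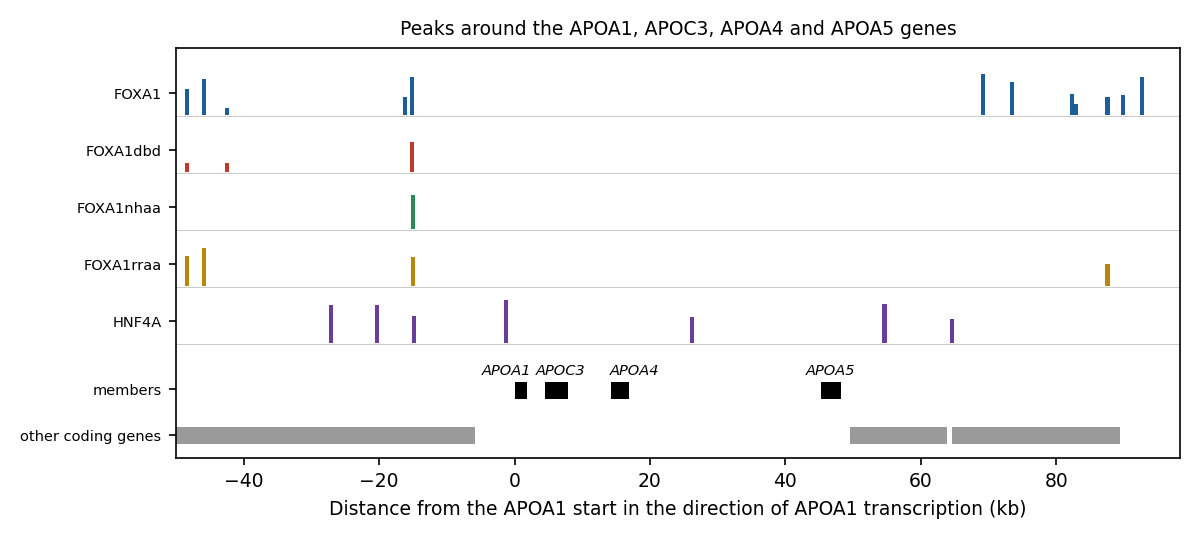
Peaks of the 5 lists (coloured bars, height rising from a fixed minimum with the percentage of the list with a lower score, drawn at least 0.6 kb wide) around the chromosome 11 cluster, by distance from the APOA1 start in the direction of APOA1 transcription (kb). Black boxes are the 4 apolipoprotein genes and grey boxes other protein-coding genes; HNF4A bars stand between and beside the genes, and the FOXA1 bars only at the flanks.

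APOA2 and APOM encode further proteins of high-density lipoprotein, and their windows held 10 and 15 protein-coding genes, the member included. APOA2 (chr1:161192082-161193421, minus strand) had 4 HNF4A peaks and 1 FOXA1 peak in its window. The HNF4A peak nearest to it, chr1:161195759-161195939, lay 2400 bp upstream of APOA2 and 29 bp from the start of TOMM40L, with a score of 48. Stronger ones lay at the start of NR1I3 (chr1:161207867-161208214, score 246), which encodes the nuclear receptor CAR, and in introns of B4GALT3 and PPOX (chr1:161142801-161143403, score 302). The single FOXA1 peak, chr1:161144226-161144557 with a score of 295, lay in overlapping introns of PPOX and B4GALT3. It was above 90.8% of the list, and its row was also the single FOXA1rraa row there.

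APOM (chr6:31620193-31625987, plus strand) had 13 HNF4A peaks, 1 FOXA1 peak, 1 FOXA1nhaa peak and no FOXA1dbd or FOXA1rraa peak. A peak at chr6:31623339-31623756, with score 96 and fold enrichment 5.1, had its summit 63 bp upstream of the canonical APOM start, which lies inside the gene's longest extent. Another, at chr6:31619606-31619943 with score 74 and fold enrichment 5.3, lay 314 bp upstream of the outermost APOM start and 13 bp from the start of BAG6, a neighbour transcribed the other way. The highest HNF4A score in the window was 460, for a peak at chr6:31648290-31648635 that lay 315 bp upstream of the LY6G5C start. The FOXA1 peak, chr6:31659743-31660252 with a score of 190, lay at an ABHD16A start 36326 bp from the nearest APOM start, and the FOXA1nhaa peak overlapped it.

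APOB and APOE encode ligands by which cells take up lipoproteins, and APOB is also the structural protein of low-density lipoprotein. APOB (chr2:21224301-21266945, minus strand) was the only protein-coding gene of its window, which held 2 FOXA1, 3 FOXA1nhaa, 1 FOXA1rraa and 2 HNF4A peaks. The HNF4A peak in an APOB intron, chr2:21265850-21266143, had its summit 951 bp into the gene, 840 bp from the nearest annotated start, and was weak, with score 34, fold enrichment 3.9 and 2.38% of the list below it. The other, chr2:21284810-21285119, lay 18014 bp upstream and had score 389 and fold enrichment 14.0, above 94.0% of the list. FOXA1, FOXA1nhaa and FOXA1rraa, but not FOXA1dbd, had a peak in an APOB intron, with the FOXA1 centre 5033 bp from the nearest annotated start. FOXA1 had chr2:21261660-21261942 there with a score of 50, above 6.9% of its list, and FOXA1nhaa and FOXA1rraa shared the row chr2:21261629-21262141 with a score of 101. The other FOXA1 peak, chr2:21195364-21195721 with a score of 179, lay 71292 bp from the APOB start. FOXA1nhaa had 2 peaks upstream of APOB that no FOXA1 peak overlapped, at chr2:21274110-21274569 (score 79) and chr2:21303525-21303801 (score 72).

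The APOE window (gene at chr19:45409048-45412650, plus strand) held 6 HNF4A peaks, 1 FOXA1 peak and no peak of the 3 variants. The variant-free stretches around the APOE start were 958.0 kb for FOXA1dbd, 560.0 kb for FOXA1nhaa and 961.0 kb for FOXA1rraa. Stretches as long held the starts of 13.1%, 7.88% and 6.07% of protein-coding genes. The HNF4A peak nearest to APOE, chr19:45407003-45407392, lay 1878 bp upstream of its start with score 233 and fold enrichment 10.1, above 83.9% of the list. The highest score in the window, 303, was that of a peak at the CLPTM1 start (chr19:45457956-45458444), and 2 weaker peaks lay at starts of TOMM40 with scores of 45 and 64. The FOXA1 peak, chr19:45364961-45365102 with a score of 112, lay 44017 bp upstream of APOE in an intron of NECTIN2, and no other list had a peak there.

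APOH encodes a plasma glycoprotein that binds phospholipids, and its window held the most FOXA1 peaks of the 9. The gene lies at chr17:64208151-64252643 on the minus strand, between CEP112 and PRKCA. Its window held 13 FOXA1, 2 FOXA1dbd, 8 FOXA1nhaa, 6 FOXA1rraa and 3 HNF4A peaks, so it supplied 13 of the 30 FOXA1 and 8 of the 13 FOXA1nhaa peaks in all. Of the FOXA1 peaks, 2 lay in introns of APOH. The peak chr17:64227746-64228003, with a score of 150, lay 2341 bp upstream of the canonical APOH start and inside an intron of a longer transcript. The peak chr17:64247632-64247805, with a score of 132, lay 4925 bp from the outermost start. No variant peak overlapped either of them. The highest FOXA1 score was 272, at chr17:64163958-64164733 in CEP112, and that peak overlapped peaks of all 3 variants, of which FOXA1nhaa and FOXA1rraa share 1 row. FOXA1nhaa had its own peak in an APOH intron, chr17:64239669-64240006 with a score of 78, which no FOXA1 peak overlapped. The 3 HNF4A peaks lay on the PRKCA side at least 31494 bp upstream of APOH. The highest, chr17:64283958-64284341 with score 189 and fold enrichment 9.0, is the one with an HNF4 core in its central 200 bp.

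**Figure D5:**
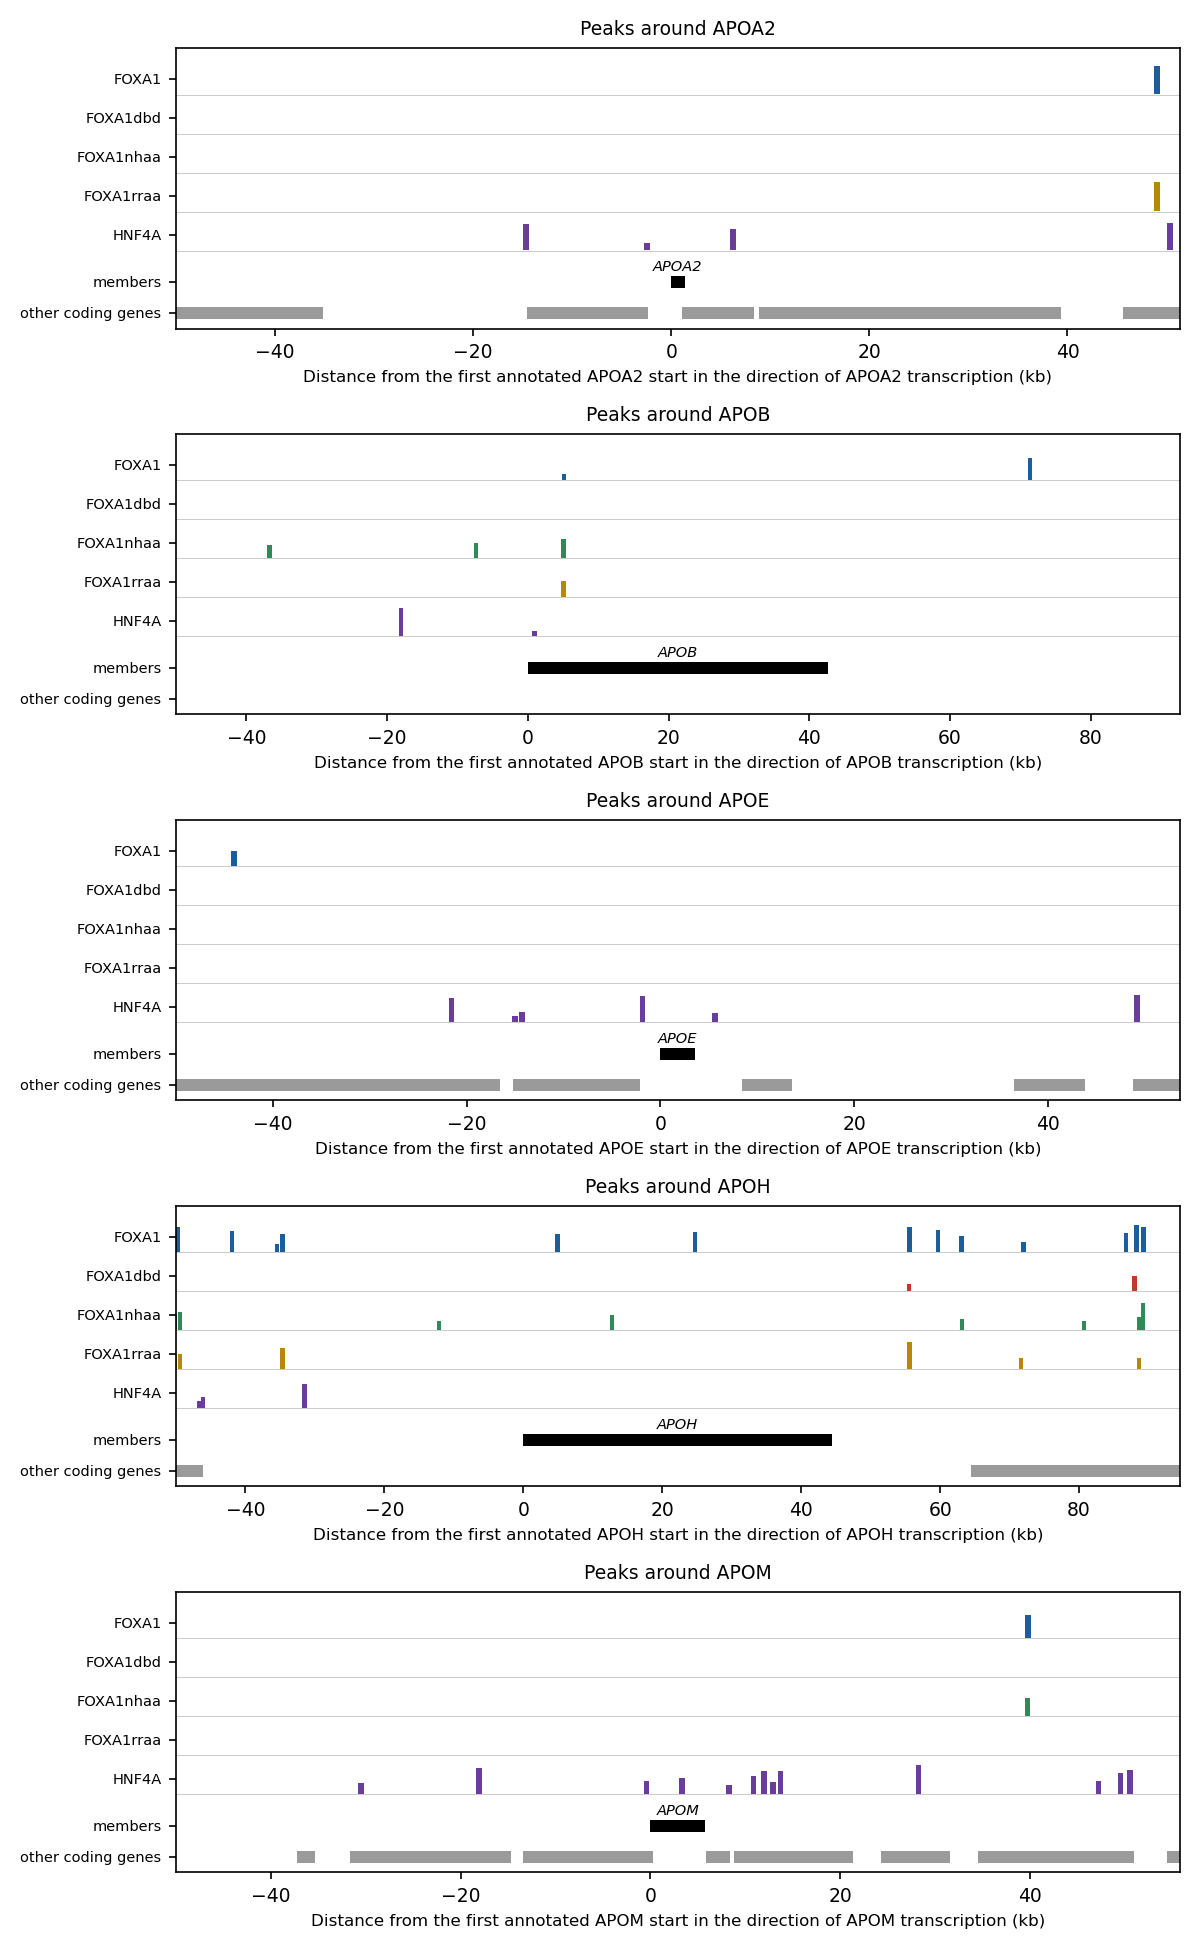
Peaks of the 5 lists around APOA2, APOB, APOE, APOH and APOM by distance from the outermost annotated start of each gene in the direction of its transcription (kb), drawn as in the map of the chromosome 11 cluster (bar height rises from a fixed minimum with the percentage of the list with a lower score, bars at least 0.6 kb wide). HNF4A bars crowd the APOM map and FOXA1 bars the APOH map, while a single FOXA1 bar stands in each of the APOA2, APOE and APOM maps, 36 kb or more from a start of the gene.

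Of the 30 FOXA1 peaks at these genes, 14 overlapped a peak of at least 1 variant (46.7%), against 58.5% of the whole FOXA1 list. Without the shared FOXA1rraa rows the count was 10 of 30 (33.3%, interval 19.2 to 51.2%), against 46.8%. The 14 had a median score of 205, and the 16 without a variant peak a median of 134.5. The whole FOXA1 list split in the same direction, with medians of 151 and 98. Without the shared rows the medians were 206.5 for the 10 and 135 for the 20 others, against 154 and 105 in the whole list. FOXA1dbd overlapped 5 of 30 (16.7%, interval 7.34 to 33.6%), against 17.3% of the list. FOXA1nhaa overlapped 7 of 30 (23.3%, interval 11.8 to 40.9%), against 39.7%. FOXA1rraa overlapped 10 of 30 (33.3%, interval 19.2 to 51.2%), against 39.9%, and 4 of 30 (13.3%, interval 5.31 to 29.7%), against 25.0%, when its rows that are FOXA1 rows were left out. HNF4A overlapped 1 of 30 (3.33%, interval 0.591 to 16.7%), against 1.68%. Each of these intervals contains the share of the whole list.

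The overlap was also counted from the other lists. All 5 FOXA1dbd peaks overlapped a FOXA1 peak, against 96.2% of the FOXA1dbd list, and each lay wholly inside it. Of the FOXA1nhaa peaks 8 of 13 overlapped a FOXA1 peak (61.5%), against 58.4%, and the 5 others lay at APOB (2) and APOH (3) with scores from 57 to 79. Of the FOXA1rraa peaks 11 of 12 did, against 86.8%, but 6 of the 11 are FOXA1 rows and overlap by construction. Of the 6 that are not, 5 overlapped a FOXA1 peak (83.3%, interval 43.6 to 97.0%), against 80.4%, and these 5 are FOXA1nhaa rows. The exception was the row with its own kind of name, chr17:64180869-64181090 with a score of 70. Of the HNF4A peaks 1 of 35 overlapped a FOXA1 peak (2.86%, interval 0.506 to 14.5%), against 6.76%. The gap from a FOXA1 peak to the nearest HNF4A peak had a median of 18336.5 bp over the 30, with 2 of them within 1000 bp and 9 within 5000 bp.

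Scores at the 9 genes lay on both sides of the list median in every list and far below its highest score. By rank, some were high: the highest FOXA1 peak was above 94.1% and the highest HNF4A peak above 97.7% of its list. FOXA1 scores ran from 40 to 340 with a median of 143.5 (list median 124), and HNF4A scores from 34 to 589 with a median of 131 (list median 99). Above their list's median were 19 of 30 FOXA1 and 21 of 35 HNF4A peaks. The 5 FOXA1dbd scores ran from 33 to 73 with a median of 37 (list median 61), and 1 was above the list median. FOXA1nhaa scores ran from 57 to 165 with a median of 79 (list median 89), and FOXA1rraa scores from 70 to 295 with a median of 114.5 (list median 106). Without the shared rows the FOXA1rraa scores ran from 70 to 128 with a median of 90.5 (list median 93).

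The base composition of the peaks differed by factor in the same way as in the whole lists. Median GC content of the central 200 bp was 34.0% at the 30 FOXA1 peaks (list 32.5%) and 53.0% at the 35 HNF4A peaks (list 52.5%). It was 36.5%, 35.0% and 33.8% for FOXA1dbd, FOXA1nhaa and FOXA1rraa, and 32.2% for FOXA1rraa without the shared rows. The ranges of FOXA1 (25.0 to 45.0%) and HNF4A (39.0 to 83.5%) overlapped.

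Exact matches to the short cores searched were rare at these peaks. The forkhead core, TGTTTAC or TATTTAC on either strand in the central 200 bp, was in 3 of 30 FOXA1 peaks (10.0%, interval 3.46 to 25.6%), against 18.2% of the list. It was in 0 of 5 FOXA1dbd peaks against 22.1%, 1 of 13 FOXA1nhaa peaks against 13.6%, 2 of 12 FOXA1rraa peaks against 20.0% (1 of 6 without the shared rows) and 1 of 35 HNF4A peaks against 3.25%. With TGTTTGC and TATTTGC added after the data were seen, the FOXA1 count was 9 of 30 (30.0%), against 29.7% of the list. The HNF4 core, CAAAGTCCA, was in 1 of 35 HNF4A peaks (2.86%, interval 0.506 to 14.5%), against 0.992% of the list. It was in 0 peaks of the other lists at these genes, where the background was 0.261% for FOXA1, 0.267% for FOXA1dbd, 0.193% for FOXA1nhaa and 0.219% for FOXA1rraa. A match is a run of letters in the reference and not a measured site. A peak without an exact match can still hold another form of the motif, and full motifs were not searched.

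The 250 bp upstream of the 9 starts themselves carried such letters in a few cases without a peak on them. A forkhead core stood upstream of APOA2 and APOH, 2 of 9 genes, against 3.62% of 19856 protein-coding genes. The nearest FOXA1 peak to the upstream sequence was 1963 bp away at APOH and 48862 bp away at APOA2. The HNF4 core stood upstream of none of the 9, against 0.267% of genes. With a looser form, CAAAGGTCA, allowed as well, either form was upstream of 1 of 9, against 0.539% of genes. The match at the 9 genes was of the looser form. It lay on the minus strand 73 bp before the start of APOC3, shown here with the core in capitals, and the nearest HNF4A peak was 8816 bp from that upstream sequence.
Upstream of APOC3, chr11:116700532-116700560: ggtcagcaggTGACCTTTGcccagcgccc
Only at APOM did an HNF4A peak reach into the 250 bp. The distance to the nearest HNF4A peak was 803 bp at APOB, 850 bp at APOA1, 1411 bp at APOE and 2091 bp at APOA2. It was 8723 bp at APOA5, 11778 bp at APOA4 and 58175 bp at APOH.

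Other genes of lipoprotein metabolism were counted in the same way. Of 16 other apolipoprotein genes and relatives, 15 had a FOXA1 peak in the window and 13 an HNF4A peak, against 87.1% and 83.6% of all genes, and 1 each had a centre within 1000 bp of a start (APOO for FOXA1, APOL2 for HNF4A). Of 27 receptors, enzymes, transporters and assembly factors, 26 had a FOXA1 peak in the window and 24 an HNF4A peak, against the same shares. At their starts FOXA1 had a centre at 7 of 27, among them MTTP, which loads lipid onto APOB, against 24.5% of all genes. HNF4A had one at 11 of 27, among them MTTP and SCARB1, the receptor for high-density lipoprotein, against 47.4% of all genes. The variants had centres at starts of 1 of 27 (FOXA1dbd), 5 of 27 (FOXA1nhaa) and 5 of 27 (FOXA1rraa, all rows), against 7.42%, 19.2% and 14.3% of all genes.

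The limit of 50 kb decided many of the counts. Within 10 kb inside the window edges lay 12 FOXA1 peaks with scores from 40 to 295, and within 10 kb outside them 10 more with scores from 105 to 278. For HNF4A there were 7 inside (scores 49 to 303) and 6 outside (scores 27 to 389). Read depth behind a peak, or behind a gene without one, is unknown. A window without a peak therefore shows that none was called at that depth.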

How the data were processed

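ChIP-seq peak lists of 5 HALO-tagged constructs in BJ fibroblasts were analysed, 1 deposited list per construct, with groups taken from the sample titles. Per the submitters' processing notes the build was hg19 and the tools included Bowtie2 2.3.4.1, Picard, GATK 4.2.6.0, bedtools 2.27.1, MACS2 2.2.7.1 and deepTools 3.5.0. Whether peaks were called per library or on pooled libraries, and how inputs were used, is not given in the sources used here. The deposited lists give a score per peak. The authors' lists other than FOXA1 also hold a fold enrichment (a ratio), −log10 p and −log10 q values and a summit offset. The down-sampled FOXA1 list was not used here. Rows with the same coordinates in a list were counted as 1 peak. No read counts are given, so depth is unknown.

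Windows came from GENCODE 44 lifted to GRCh37, and sequences from GRCh37. In every list the peak ends lay within the reference chromosome lengths. Peak centres are summits where these lie inside the row and midpoints otherwise, as in the whole FOXA1 list. The background is 20136 protein-coding genes or the whole list. Cores were looked for within 200 bp around the centre, on either strand. Distances to a start use all annotated transcripts. The 250 bp upstream sequences use 1 canonical transcript per gene, with 19856 genes. Overlap means at least 1 bp. Shares have Wilson 95% intervals. No test across samples was possible with 1 list per construct. The code was written in Python 3.11.15 with numpy 2.4.6, pandas 2.3.3, scipy 1.17.1, pysam 0.24.0 and matplotlib 3.10.9, and was tested on simulated data.

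The members, gene lists, cores and settings were chosen with earlier results of these data known. All 9 genes are named. Some gene names and peak sequences are not reported here. Named peaks are the highest-scoring FOXA1 and HNF4A peak of each locus, peaks within 1000 bp of a member start, and FOXA1 peaks overlapped by all 3 variants or by HNF4A. The nearest HNF4A and FOXA1 peaks of each gene, FOXA1nhaa peaks without FOXA1 and further peaks at neighbouring starts were named after their values had been seen. Alternatives were windows of 10 kb and 100 kb, the top 50% of each list, stricter overlap, a central 100 bp or the whole peak for cores, joined FOXA1 rows and the FOXA1rraa list without its 23216 FOXA1 rows (same coordinates and peak name, ignoring the suffix of split rows).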

Additional observations from a re-analysis of the deposited data

How the results depend on the processing

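Of 82 recomputed values, 49 stayed within 1.5 times the reported count or within the interval of the reported share, and 33 moved further. With 10 kb in place of 50 kb the peaks numbered 3 (FOXA1), 0 (FOXA1dbd), 3 (FOXA1nhaa), 1 (FOXA1rraa) and 15 (HNF4A), and the genes with a peak 2, 0, 2, 1 and 8. With 100 kb there were 61 FOXA1, 34 FOXA1nhaa, 24 FOXA1rraa and 56 HNF4A peaks. In the top 50% of each list by score there were 19, 1, 5, 6 and 21 peaks, and FOXA1dbd overlapped 5.26% of the FOXA1 peaks. With the shared FOXA1 rows left out, 6 FOXA1rraa peaks were left and the overlap share was 13.3%. When 50% of the shorter peak had to overlap, or centres had to lie within 200 bp, HNF4A overlapped 0.0% of the FOXA1 peaks. In the central 100 bp the forkhead core was in 3.33% of FOXA1, 0.0% of FOXA1nhaa and 0.0% of FOXA1rraa peaks, and the HNF4 core in 0.0% of HNF4A peaks. Chosen after seeing the data, leaving out the APOH window left 17 FOXA1, 3 FOXA1dbd, 5 FOXA1nhaa and 6 FOXA1rraa peaks. Leaving out the APOM window left 22 HNF4A peaks, and looser forkhead cores gave 30.0% for FOXA1. The cause of these moves was not tested beyond what each setting removes or adds. No paired analysis was possible because the constructs come as single lists, none with a replicate number, and no replicate could be left out.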

Other observations

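The peak numbers of a list give a view of rows that are not in it. Within the 6 loci, 4 numbers were skipped in the FOXA1 list, all in the APOH window. FOXA1dbd lacked 4, FOXA1nhaa 6 (1 at APOB and 5 at APOH), HNF4A 0 and FOXA1rraa, whose rows keep the numbers of several sources, 22. Many of the numbers skipped in FOXA1rraa belong to rows of the FOXA1 and FOXA1nhaa lists that are counted above. The rows of the other skipped numbers were not analysed here.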
